A study of Mus musculus with 2 samples.

Results

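Strong interferon-response microglia are a small set of retinal microglia, the resident macrophages of the nervous tissue, that carry many transcripts of antiviral genes. They were chosen here by measured counts. A cell barcode was taken as microglia when at least 3 of the 7 genes P2ry12, Tmem119, Cx3cr1, Gpr34, Siglech, Fcrls and Olfml3 had a count. It was a member when its raw counts of Ifit1, Ifit2, Ifit3, Rsad2 and Isg15 summed to 5 or more unique molecular identifiers (UMIs, each standing for 1 captured transcript). The rule found 226 members among 3948 microglia, 4456 cells kept after filtering and 4520 barcodes in all. They are set below against the 2774 microglia in which that sum was 0, and 948 microglia with a sum of 1 to 4 lay between. The comparison of these groups describes cells that were chosen by the 5 genes, and no test is attached to it.

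The series holds 2 single-cell libraries from the retina of C57BL/6 mice, 1 labelled wildtype and 1 labelled as lacking Igfbpl1 (the label's spelling of the genotype is Igfbpl-/1, which the series title gives as Igfbpl1-/-). The design text names 10 mice of each genotype, matched for sex and aged 8 to 10 months. The mice were perfused, the retinas were digested with collagenase, dispase and papain, and CD45, carried by blood-derived cells and microglia alike, was the mark for sorting. How many mice entered each library, and what part of the gene the allele lacks, are not given in the sources used here. With 1 library per genotype there is no replicate, so no difference between the libraries has a replicate check, and every interval below is a 95% interval for counting error only.

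Igfbpl1 went against the labels. The gene (chromosome 4 of GRCm38, minus strand, 45809468 to 45826923) had 2 counts in all barcodes of the library labelled wildtype and 29 in those of the library labelled knockout. Members held 0 and 2 of these counts. A transcript end outside the deleted part would check nothing, so the libraries are called by their labels throughout and each direction between them rests on those labels. They held 11020717 and 7945713 UMIs. One barcode sequence occurred in both libraries, as a member under the wildtype label and with a sum of 0 under the knockout label; without it the member shares given below are 5.39% and 6.20%.

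Type I interferons (interferon alpha and beta) bind a receptor made of the products of Ifnar1 and Ifnar2. Signalling from the receptor then switches on a large set of interferon-stimulated genes, and Irf7, itself such a gene, amplifies the response. The 5 genes of the rule belong to its core. Ifit1, Ifit2 and Ifit3 encode proteins that bind foreign RNA and each other, Rsad2 encodes viperin, an enzyme whose product blocks viral RNA synthesis, and Isg15 encodes a ubiquitin-like protein that is attached to other proteins. Microglia with this program are known from infected, injured and ageing nervous tissue.

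The stretches just upstream of these genes are shown because the response runs through a short DNA element there, the interferon-stimulated response element. Its core was searched as TTTC followed after 2 bases of any kind by TTTC, or as GAAA and GAAA so spaced, which is the same core on the other strand, in the 250 bases before each gene's start, and overlapping matches were all counted. The windows are from RefSeq on GRCm38.p6. Matches are in capitals.
Ifit1 (chr19:34640639-34640888, plus strand): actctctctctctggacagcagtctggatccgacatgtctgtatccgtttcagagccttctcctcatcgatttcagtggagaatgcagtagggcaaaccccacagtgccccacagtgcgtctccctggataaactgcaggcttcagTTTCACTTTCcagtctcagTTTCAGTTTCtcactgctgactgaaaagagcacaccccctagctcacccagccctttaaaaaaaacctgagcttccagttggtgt
Ifit3 (chr19:34583279-34583528, plus strand): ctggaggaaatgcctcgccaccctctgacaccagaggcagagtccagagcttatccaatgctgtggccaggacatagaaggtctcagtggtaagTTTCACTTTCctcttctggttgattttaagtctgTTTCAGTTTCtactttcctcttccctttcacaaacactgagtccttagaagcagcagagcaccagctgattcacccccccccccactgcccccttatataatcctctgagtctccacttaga
Rsad2 (chr12:26456453-26456702, minus strand): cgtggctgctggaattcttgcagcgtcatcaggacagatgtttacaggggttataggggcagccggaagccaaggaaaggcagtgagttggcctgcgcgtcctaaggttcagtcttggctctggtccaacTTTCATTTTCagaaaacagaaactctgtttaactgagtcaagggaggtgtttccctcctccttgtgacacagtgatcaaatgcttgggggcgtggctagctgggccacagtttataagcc
Isg15 (chr4:156200819-156201068, minus strand): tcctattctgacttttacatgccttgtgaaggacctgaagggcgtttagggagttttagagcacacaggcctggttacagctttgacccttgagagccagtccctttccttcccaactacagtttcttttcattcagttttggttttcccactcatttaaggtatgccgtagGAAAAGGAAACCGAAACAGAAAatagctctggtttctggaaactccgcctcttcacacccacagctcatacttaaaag
Cxcl10 (chr5:92348890-92349139, minus strand): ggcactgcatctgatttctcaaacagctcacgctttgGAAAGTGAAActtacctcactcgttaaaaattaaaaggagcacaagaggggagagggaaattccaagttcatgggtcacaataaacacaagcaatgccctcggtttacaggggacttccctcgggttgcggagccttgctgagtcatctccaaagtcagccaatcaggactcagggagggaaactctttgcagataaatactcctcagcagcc
Ifit1 has TTTCACTTTC beginning 104 bases and TTTCAGTTTC beginning 85 bases before its start, and Ifit3 has the same pair of 10-base matches at 156 and 122 bases. Rsad2 has 1 match, at 120 bases. In Isg15, 3 matches overlap, beginning at 78, 72 and 66 bases. Cxcl10, a chemokine gene outside the rule to which the data return below, has 1 match at 213 bases. The windows of Ifit2 held no match to these letters, so 4 of the 5 rule genes had one. Of all 32851 promoter windows, 2.98% held a match.

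Members were a like share of microglia in both libraries, but their sums reached higher values in the library labelled wildtype. The library labelled wildtype held 131 members among 2415 microglia, 5.42% (Clopper-Pearson interval 4.55 to 6.40). The library labelled knockout held 95 among 1533, 6.20% (5.04 to 7.52). The sum of the 5 genes in a member had a median of 13 UMIs, a mean of 22.2 and a highest value of 127 under the wildtype label. Under the knockout label the median was 7, the mean 9.69 and the highest value 48. A sum of 20 or more was found in 50 microglia of the library labelled wildtype, 2.07% of them (1.54 to 2.72), and in 8 of the library labelled knockout, 0.522% (0.226 to 1.03). With 1 library per label this describes the libraries and not the genotypes. A sum of 40 or more was found in 22 cells and 1 cell. The 50 and 8 strongest cells carried 58.8% and 13.9% of all counts of the 5 genes in microglia. The weak end of the range was filled the other way round: a sum of 5 to 9 was found in 53 microglia (2.19%) and 67 (4.37%).

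**Figure D1:**
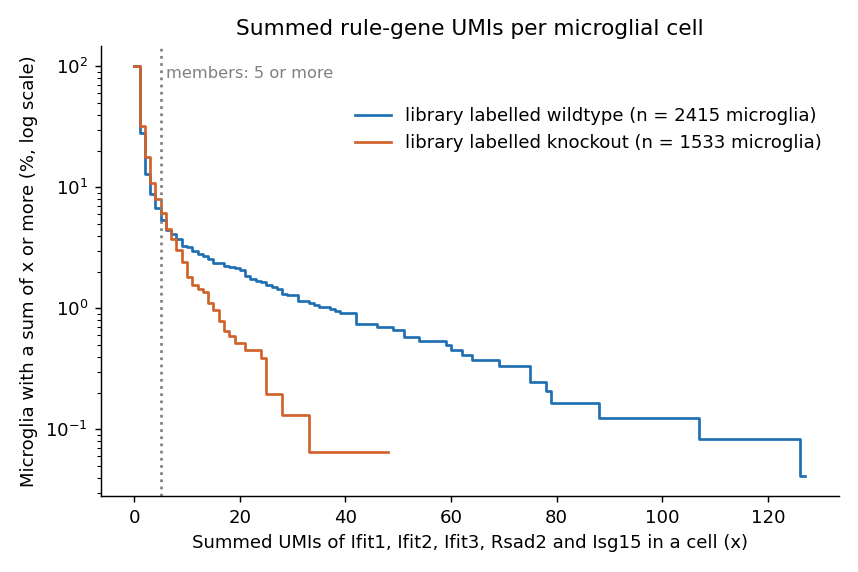
Share of microglia (percent, log scale) whose summed UMIs of Ifit1, Ifit2, Ifit3, Rsad2 and Isg15 reach the value on the horizontal axis, for each library; the dotted line marks the threshold of 5. The knockout-labelled curve is the higher at 1 or more (32.2% against 28.2%) and at the threshold (6.20% against 5.42%). The curves cross above it, and the wildtype-labelled curve is the higher at 10 or more (3.23% against 1.83%). They reach 127 UMIs in the library labelled wildtype and 48 in the library labelled knockout.

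The threshold cuts a continuous range. Just outside it, 31 and 27 cells had a sum of 4, with a median of 808 and 778 CPM (counts of the 5 genes per 1000000 UMIs of the cell). Just inside it, 23 and 26 cells had a sum of 5, with medians of 1122 and 960.1 CPM. Members were somewhat deeper than the cells they are compared with: their median was 5170 and 5040 UMIs per cell, against 3850 and 4115 in microglia with a sum of 0. When microglia were split by depth into 5 classes of like size, members were 14 of 483 cells (2.90%) in the shallowest and 58 of 483 in the deepest class under the wildtype label, and 1.95% and 8.47% under the knockout label. With every cell thinned to 2000 UMIs, a sum of 3 or more was found in 5.69% and 6.27% of microglia. A sum of 20 or more was found in 31 of 483 (6.42%) and 2 of 307 (0.652%) microglia of the deepest class. From the shallowest class up, the other 4 held 3, 5, 3 and 8 such cells under the wildtype label and 0, 1, 3 and 2 under the knockout label. In the middle class the share was the higher under the knockout label (0.624% and 0.977%), so the gap rests mostly on the deepest cells.

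The 5 genes did not contribute equally. Ifit3 and Isg15 gave most of the members' counts. Ifit3 gave 1038 of 2909 counts (35.7%) and 354 of 921 (38.4%), and was counted in 90.8% and 89.5% of members. Isg15 gave 832 and 345 counts and was counted in 90.1% and 87.4% of members. Both genes thus marked nearly every member in either library. Ifit2 had 572 and 120 counts and was found in 82.4% and 56.8% of members. Ifit1 had 207 and 63 counts, in 71 and 38 members. Rsad2 had 260 and 39 counts, in 49.6% and 22.1% of members. At least 4 of the 5 genes were counted in 61.1% of members under the wildtype label and 30.5% under the knockout label, and 7 and 3 members qualified through a single gene. Among the 5, Rsad2 had the lowest ratio of knockout-labelled over wildtype-labelled members, 0.209 (74.7 against 357.7 CPM) and Isg15 the highest, 0.578 (661.1 against 1145 CPM).

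The label was set beside markers. The rule asks for 3 of the 7 microglial genes, so their counts describe the members and are no check of the label. At least 6 were counted in 84.7% and 80.0% of members, against 74.0% and 69.9% of the shallower microglia with a sum of 0. Defining markers of other blood cells were largely at 0 in members: 9 of 10 T or NK cell genes, 7 of 8 B cell genes, 6 of 8 neutrophil genes and 7 or 8 of 10 monocyte genes, among them Ccr2, Ly6c2, Cd3g, Nkg7 and Cd79a, had no count in members of each library. The monocyte list still summed to 31.6 and 59.4 CPM in members, against 16.6 and 33.1 CPM with a sum of 0. It had a count in 7.63% and 16.8% of members, against 3.81% and 5.48% of microglia with a sum of 0. The T or NK, B and neutrophil lists each summed to less in members than with a sum of 0 in both libraries. No member held 2 or more T or NK, B, neutrophil, rod or cone, or bipolar cell markers. At least 2 dendritic cell markers were found in 16 (12.2%) and 8 (8.42%) members, against 6.00% and 6.73% of microglia with a sum of 0, while that list summed to 199.5 and 157.1 CPM in members and 253.9 and 244.9 CPM with a sum of 0. At least 2 Müller glia or astrocyte markers were found in 42.7% and 53.7% of members, against 37.4% and 43.8%. That list, which includes Apoe, summed to 8552 and 16239 CPM in members and 5799 and 8738 CPM with a sum of 0, with Rlbp1, Aqp4, Gfap, Clu, Dkk3 and Car14 at 0 in members. Its part in the results was not tested. At least 2 border macrophage markers (of a list with Mrc1, Pf4 and Ms4a7) were found in 7 members (5.34%) under the wildtype label and 13 (13.7%) under the knockout label, against 3.11% and 3.94% of microglia with a sum of 0. Summed, that list stood at 460.9 and 584.5 CPM in members and at 205.0 and 209.5 CPM with a sum of 0. Of its 10 genes, 1 (Clec10a) was at 0 in members of the library labelled wildtype and 5 (Cd163, Lyve1, F13a1, Clec10a and Folr2) in those of the library labelled knockout.

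Other sorted cells carried the 5 genes too. Among kept cells outside the microglia, 12 of 280 and 19 of 228 reached a sum of 5. Of cells with rod, cone or bipolar cell markers, which were shallow (median 1653 and 1713 UMIs), 0 of 26 and 0 of 20 did so, which allows up to 13.2% and 16.8%, and 25 and 19 of them had a sum of 0. Of cells with Müller glia or astrocyte markers (median 4484.5 and 5622 UMIs), 3 of 50 (6.00%, 1.25 to 16.5) and 7 of 45 (15.6%, 6.49 to 29.5) reached it. The share of microglia that were members was not above the share in those glia in either library. Any cell can switch on these genes when it meets interferon, so no cell type here is a strict gauge of free RNA, and its part in single members was not tested.

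Outside the rule, members carried more transcripts of a broad set of antiviral genes, and hardly any gene was lower. Counts were summed over members and over microglia with a sum of 0 within each library and given as CPM of that sum. Of 1566 genes at 100 CPM or more in the higher group of both libraries, 59 were at least 2-fold higher in members in both libraries (3.77%), and 0 were at least 2-fold lower in both (0%). A gene below 100 CPM with a sum of 0 could enter only through the members, so the count of 59 partly follows from this minimum. Of the 59, 41 belonged to lists of interferon, antigen presentation or chemokine genes. Among the 1566 genes tested, these lists held 29 antiviral effectors, 8 sensors, 10 signalling genes, 5 feedback genes and 1 GTPase gene. They also held 16 genes of MHC class I, 6 of class II, and 3 and 5 chemokine genes, and some lists share genes. The ratio of the 59 had a median of 6.19 under the wildtype label and 3.39 under the knockout label. For 53 of them it was the larger under the wildtype label. In 57 of the 59, microglia with a sum of 1 to 4 lay between the other groups in both libraries. These counts take a difference of any size and have no share of all genes beside them. Over all 1566 genes the median log2 ratio was -0.04 and -0.02. Of genes with a promoter window, 17 of 48 among the 59 held the searched core (35.4%), against 42 of 1173 genes tested and not in the 59 (3.58%), which is a description of these letters and not of binding.

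**Figure D2:**
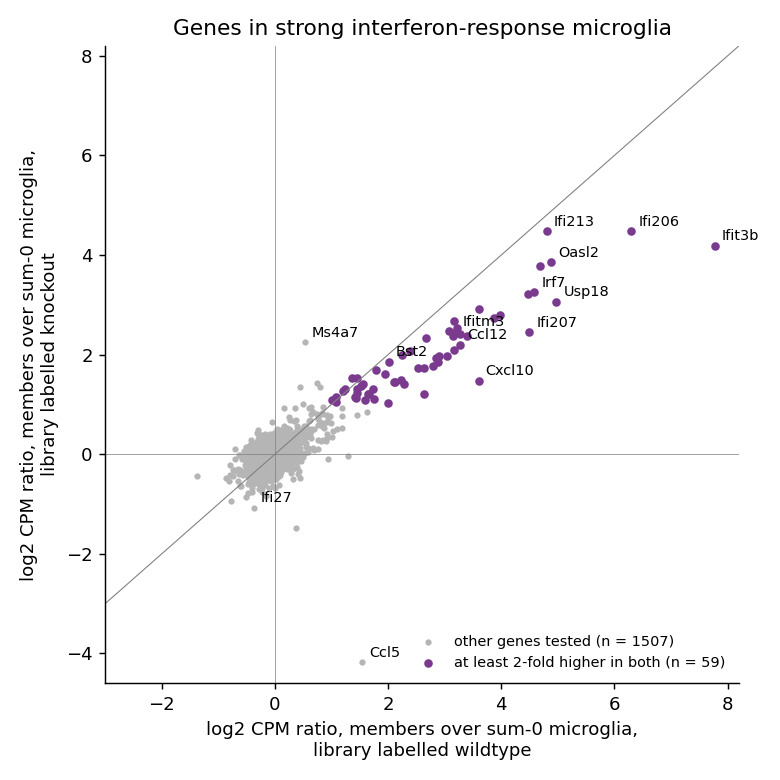
Each point is a gene: log2 of its CPM ratio, members over microglia with a sum of 0, in the library labelled wildtype (horizontal) and in the library labelled knockout (vertical), with the line of equal ratios. The 59 genes that were at least 2-fold higher in both libraries lie mostly below that line, while Ccl5 lies far below 0 on the vertical axis only.

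Of the genes that carry or damp interferon signals, a few were far higher in members and most were near the level of all genes. The 10 tested genes of interferon signalling and its transcription factors had a median log2 ratio of 0.11 and 0.15, and the 5 tested feedback genes 0.12 and 0.18. Irf7 was at 561.3 CPM in members and 23.4 with a sum of 0 under the wildtype label (24.04-fold), and at 281.7 and 29.4 CPM under the knockout label (9.57-fold). Stat2, which encodes a factor that carries the receptor's signal to the nucleus, was at 178.9 and 17.1 CPM (10.5-fold) and at 130.3 and 25.1 CPM (5.20-fold). Both were past 1.5-fold in both libraries, a size that 85 of the 1566 genes tested (5.43%) reached, while 3 (0.192%) were 1.5-fold lower in both. Irf8, a lineage factor of microglia, was at 664.5 and 567.7 CPM and at 666.9 and 583.4 CPM. Of the receptor genes, Ifngr1, a chain of the interferon gamma receptor, had ratios of 0.775 and 0.732, and Ifnar1, below the level tested, had 0.424 and 1.19. Usp18, which encodes the protease that removes Isg15 from proteins and damps the receptor, was 31.4-fold and 8.33-fold higher. Herc6, which encodes the main ligase that attaches Isg15 in mice, was 8.47-fold and 5.56-fold higher. Usp18 and Herc6 were the 2 of the 5 feedback genes past 1.5-fold in both libraries. Socs3, a feedback inhibitor of other cytokine receptors, had ratios of 0.970 and 0.860.

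Sensors of foreign nucleic acid were the group with the highest median. Of 26 listed genes, 8 were tested. At least 2-fold higher in both libraries were 7 of the 8, beside 3.77% of all 1566 genes tested. The median log2 ratio was 3.79 and 2.74, beside -0.04 and -0.02 over all genes tested. All 7 were below 100 CPM with a sum of 0 in both libraries and so entered only through members. The count of 7 and the high median thus partly follow from the minimum level. Most of the 7 were genes of the Ifi200 family on chromosome 1, whose products bind DNA. Ifi206 was 78.6-fold and 22.3-fold higher, Ifi213 27.9-fold and 22.2-fold, Ifi207 22.5-fold and 5.45-fold, and Ifi204 12.1-fold and 7.58-fold. These genes are close copies of each other, so how counts were split among them is uncertain. Dhx58, which encodes a cytosolic RNA sensor, was 8.98-fold and 6.39-fold higher. Tmem173, which encodes the DNA-sensing adaptor STING, was the tested member that was not higher, at ratios of 0.804 and 0.875.

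Antiviral effectors made up the largest group. Of 53 listed genes in the tables, 29 were tested. At least 1.5-fold higher in both libraries were 27, beside 5.43% of all 1566 genes tested, and 0 were lower. The median log2 ratio of the 29 was 2.63 and 1.76. Most of the 27 were below 100 CPM with a sum of 0, as Oasl2 was (13.3 and 19.1 CPM), and so entered through members. In single members, the summed level of this list ran from 1722 through a median of 13977 to 32312 CPM under the wildtype label, and from 1863 through 11779 to 27431 CPM under the knockout label. With a sum of 0 the medians were 2341 and 2994 CPM, and the highest cells 21368 and 23290 CPM. The ranges overlap, but 127 of 131 and 93 of 95 members lay above the median of cells with a sum of 0.

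Ifit3b had the highest ratio, 218.6-fold and 18.2-fold, but it is a near-identical copy of Ifit3, and reads of the rule gene may have been counted for it. Oasl2, of the oligoadenylate synthetase family, was at 390.7 against 13.3 CPM (29.4-fold) and at 275.9 against 19.1 CPM (14.5-fold). Zbp1, which encodes a sensor of Z-form nucleic acid, was 25.7-fold and 13.8-fold higher, and Slfn5, a Schlafen family gene, 22.1-fold and 9.25-fold. Ifitm3, whose product blocks the entry of viruses at membranes, was among the most abundant: 1619 against 176.7 CPM (9.17-fold) and 1334 against 242.6 CPM (5.50-fold). With cells thinned to 1000 UMIs, Ifitm3 was counted in 91 of 130 and 65 of 95 members, in 13.4% and 18.1% of microglia with a sum of 0, and 13.7% and 12.5% of retinal neurons and glia. Bst2, which encodes tetherin, a protein that holds budding virus at the cell surface, was 4.03-fold and 3.63-fold higher (1573 and 1646 CPM in members). Its level in members was thus alike in both libraries. Rtp4 (14.7-fold and 6.61-fold), Phf11d (9.68-fold and 5.31-fold), Rnf213 (8.82-fold and 5.18-fold) and Ifi209 (15.7-fold and 6.97-fold) complete the 20 genes with the highest mean ratio.

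Ifi27, an interferon-inducible gene, was lower in members, as was Ifngr1 above. It was at 110.1 against 142.6 CPM (0.772) under the wildtype label and at 78.6 against 166.0 CPM (0.473) under the knockout label, while its neighbour in name, Ifi27l2a, was 3.33-fold and 2.48-fold higher. Of 16 genes of GTPases induced by interferon, only Irgm1 passed the minimum level, at 7.33-fold and 3.63-fold.

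Genes of antigen presentation were higher by small factors. Of 16 tested genes of MHC class I and peptide loading, 7 were at least 1.5-fold higher in both libraries, beside 5.43% of all 1566 genes tested. The median log2 ratio of the 16 was 0.56 and 0.54. Tap1, which encodes a chain of the peptide transporter, was 4.01-fold and 2.03-fold higher. The abundant H2-D1 and B2m, a heavy chain and the shared light chain, had ratios of 1.06 and 1.30, and of 1.16 and 1.43. Summed over the list, single members had medians of 11748 and 12917 CPM and cells with a sum of 0 had medians of 8766 and 8837 CPM. Of the MHC class II genes, 2 of 6 (H2-Aa and H2-Eb1) were at least 1.5-fold higher in both libraries, but few cells carried them. H2-Eb1 was counted in 4.58% and 12.6% of members, and 1 member held 60.2% of its counts under the wildtype label; without the highest cell of each group its ratio there was 0.785. The ratio of H2-Aa was then 1.24 (0.956 to 1.59) there, so neither call stood under the wildtype label.

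Genes that identify microglia differed little. None of 28 tested homeostatic genes was 1.5-fold higher or lower in both libraries, and the median log2 ratio was -0.20 and -0.08. Over all 1566 genes tested, 5.43% were that much higher and 0.192% that much lower, so a count of 0 among 28 lies near those shares. The list includes the 7 genes of the microglia rule, of which cells of both groups had to carry at least 3. The likeness of the groups in those 7 was thus partly set by the choice of cells. Cst3, which encodes the protease inhibitor cystatin C and is the most abundant of them, had ratios of 0.828 and 0.849, and the complement gene C1qb 1.06 and 1.05. Summed, the 28 genes had a median of 106052 CPM in members and 117041 in cells with a sum of 0 under the wildtype label, and of 112567 and 116997 CPM under the knockout label.

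Programs of other kinds were near the level of all genes tested. None of 12 genes of NF-kB and inflammation, 22 of oxidative phosphorylation or 16 of the dissociation and immediate early response reached 1.5-fold in both libraries in either direction. Over all 1566 genes tested, 5.43% were 1.5-fold higher in both libraries and 0.192% lower. A count of 0 in lists this short lies near those shares. Nfkbia, the inhibitor induced by NF-kB itself, had ratios of 0.971 and 0.998, Jun, an immediate early factor, 0.984 and 0.960, and Fos, its partner, 1.24 in both. Of 15 disease-associated genes, 2 were at least 1.5-fold higher in both libraries, beside the same 5.43% of all genes tested. Axl, which encodes a receptor for dying cells, was 2.88-fold and 2.60-fold higher, and Apoe, the lipid carrier gene, 1.56-fold and 1.93-fold. Apoe without the highest cell of each group was at 1.26 and 1.80. Fcgr1, which encodes the high-affinity receptor for IgG, was 2.72-fold and 2.35-fold higher. The lowest mean ratio after Ccl5 was that of Sox4, a transcription factor gene, at 0.384 and 0.735, and Chst1, a sulfotransferase gene, was next at 0.587 and 0.524.

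**Figure D3:**
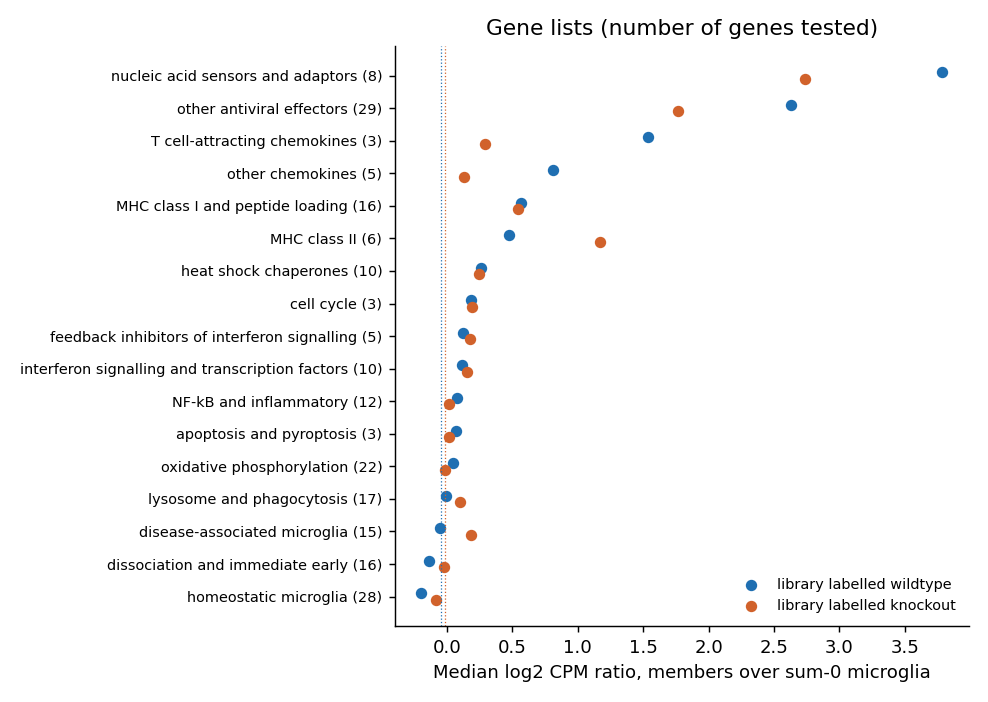
Median log2 CPM ratio, members over microglia with a sum of 0, of each gene list with at least 3 genes tested (their number in brackets), for both libraries; dotted lines mark the median over all 1566 genes tested. Nucleic acid sensors (3.79 and 2.74) and antiviral effectors (2.63 and 1.76) stand apart from lists of homeostatic, NF-kB and respiratory genes, which lie near 0. Most tested genes of the sensor and effector lists passed the minimum level through members alone.

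The program was graded. The summed antiviral effectors stood at 2809, 3796, 6421, 8042, 11825 and 20070 CPM in microglia of the library labelled wildtype with a sum of 0, 1 to 2, 3 to 4, 5 to 9, 10 to 19 and 20 or more. In the library labelled knockout they stood at 3621, 4805, 6637, 9792, 15196 and 17644 CPM. The level was thus higher in every successive tier in both libraries, with no step at the threshold of 5. Ifitm3 followed it, from 176.7 to 2441 CPM and from 242.6 to 2463 CPM, and so did Irf7, from 23.4 to 946.8 CPM and from 29.4 to 484.3 CPM. Homeostatic genes went from 116353 CPM to 98412 in the top tier under the wildtype label, and stood at 116416 and 116220 CPM in the lowest and top tiers under the knockout label, where the top tier holds 8 cells.

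**Figure D4:**
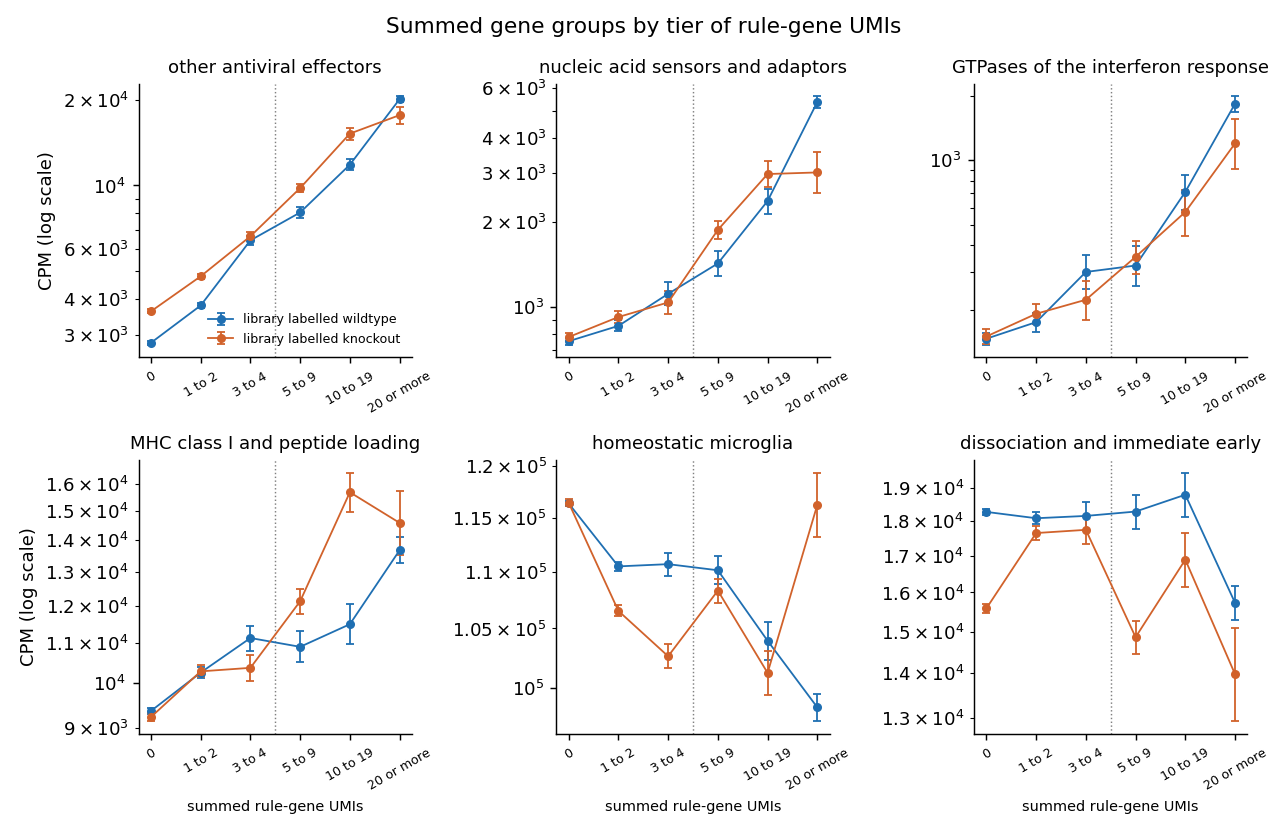
Summed CPM (log scale) of 6 gene lists in microglia grouped by their summed rule-gene UMIs, for both libraries, with 95% Poisson intervals; the dotted line marks the member threshold of 5. Antiviral effectors reach 20070 and 17644 CPM in the top tier, from 2809 and 3621 CPM with a sum of 0.

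Between the libraries, members differed in both directions, mostly toward lower interferon genes under the knockout label. Of 1715 genes at 100 CPM or more in members of 1 library, 33 were at least 2-fold lower (1.92%) and 9 at least 2-fold higher (0.525%) under the knockout label. In microglia with a sum of 0, 2 of 1596 genes were at least 2-fold lower (0.125%) and 2 at least 2-fold higher (0.125%). Of 33 antiviral effectors at that level, 13 were at least 1.5-fold lower and 1 higher (Lgals3bp, 1.60), where 107 of 1715 genes (6.24%) were 1.5-fold lower and 44 (2.57%) higher. Their median log2 ratio was -0.50. All 4 interferon-induced GTPase genes at that level were at least 1.5-fold lower. Summed over all 16 listed GTPase genes, the ratio was 0.459 (0.397 to 0.531). In microglia with a sum of 0 the direction was the opposite: the antiviral list summed to 1.29 (1.26 to 1.32). Of the 59 genes named above, 48 were higher there under the knockout label by any amount, some by little (Herc6, 1.02). The median log2 ratio of the 1596 genes tested with a sum of 0 was -0.02.

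Within tiers of the rule genes the antiviral difference was another. In the same tier of the rule genes, antiviral effectors were at a ratio of knockout-labelled over wildtype-labelled cells of 1.22 (1.15 to 1.29) for sums of 5 to 9 and 1.29 (1.204 to 1.37) for 10 to 19, and of 0.879 (0.817 to 0.945) for 20 or more. With members of a sum of 5 to 19 alone, 14 genes were at least 2-fold lower and 18 higher, in place of 33 and 9. Usp18, at 0.402 (0.306 to 0.521) over all members, was at 0.897 and 0.813 in the tiers of 5 to 9 and 10 to 19, with intervals that include 1. Mx1, which encodes a GTPase against influenza and related viruses, was at 0.357 (0.258 to 0.486) over all members, and at 0.743 and 1.05 in those tiers. Ifi207, at 0.342 over all members, was at 1.16 and 0.628.

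Chemokine genes differed within tiers as well. Of 8 tested, Cxcl10 and Ccl12 were at least 1.5-fold higher in members of both libraries, beside 5.43% of all 1566 genes tested. Between libraries, 5 of 8 were at least 1.5-fold lower in members under the knockout label, beside 6.24% of 1715 genes. Cxcl10, whose product draws activated T cells through the receptor Cxcr3, was at 1915 CPM in members and 158.2 with a sum of 0 under the wildtype label (12.1-fold), with counts in 47 of 131 members (35.9%). Under the knockout label it was at 180.1 and 64.6 CPM (2.79-fold), with counts in 12 of 95 members (12.6%). One cell held 55 of the 94 counts there. Without the highest cell of each group the ratio under the knockout label was 1.33 (0.921 to 1.87), so that Cxcl10 is then not among the 59 genes, and it was 10.5 under the wildtype label. Between libraries its ratio in members was 0.0941 (0.0755 to 0.116), 0.0473 without those cells. By tier it was 0.146 (0.0855 to 0.237) for sums of 5 to 9, 0.296 (0.157 to 0.523) for 10 to 19 and 0.310 (0.235 to 0.403) for 20 or more. With a sum of 0 it was 0.409 (0.357 to 0.466), and for sums of 3 to 4 it was 1.21 (0.873 to 1.67), the tier in which Cxcl10 was not lower under the knockout label.

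Ccl12, which encodes a ligand of the monocyte receptor Ccr2, was the most abundant gene among the 59. It was at 6255 against 647.8 CPM (9.66-fold) under the wildtype label and at 2292 against 500.7 CPM (4.58-fold) under the knockout label. With cells thinned to 1000 UMIs it was counted in 80.8% and 57.9% of members, and in 1.37% and 0% of retinal neurons and glia. Its ratio between libraries was 0.366 (0.344 to 0.391) over all members, and 0.600, 0.655 and 0.783 in the tiers of 5 to 9, 10 to 19 and 20 or more, all with intervals below 1. Ccl2, a ligand of the same receptor, was 2.43-fold higher in members under the wildtype label (573.7 against 235.6 CPM) and at 0.975 under the knockout label (193.5 against 198.5 CPM). Its ratio between libraries was 0.337 (0.269 to 0.420) in members and 0.842 (0.774 to 0.915) with a sum of 0.

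Ccl5, which encodes a chemokine that draws T cells and monocytes, had opposite directions in the libraries. It was at 359.1 CPM in members and 123.9 with a sum of 0 under the wildtype label, with counts in 24 of 131 members (18.3%) and 7.44% of cells with a sum of 0. Under the knockout label it was at 11.5 and 208.1 CPM, with 6 counts in 5 of 95 members (5.26%) and counts in 4.52% of cells with a sum of 0. Single cells weigh much: 1 member held 73 of the 261 counts under the wildtype label, and 1 cell with a sum of 0 held 274 of 905 under the knockout label. Without the highest cell of each group the ratios were 2.50 and 0.0531. T or NK cell markers, whose cells also make Ccl5, summed to 1.38 and 1.92 CPM in members and to 13.3 and 47.8 CPM in cells with a sum of 0, and their part in this result was not tested.

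**Figure D5:**
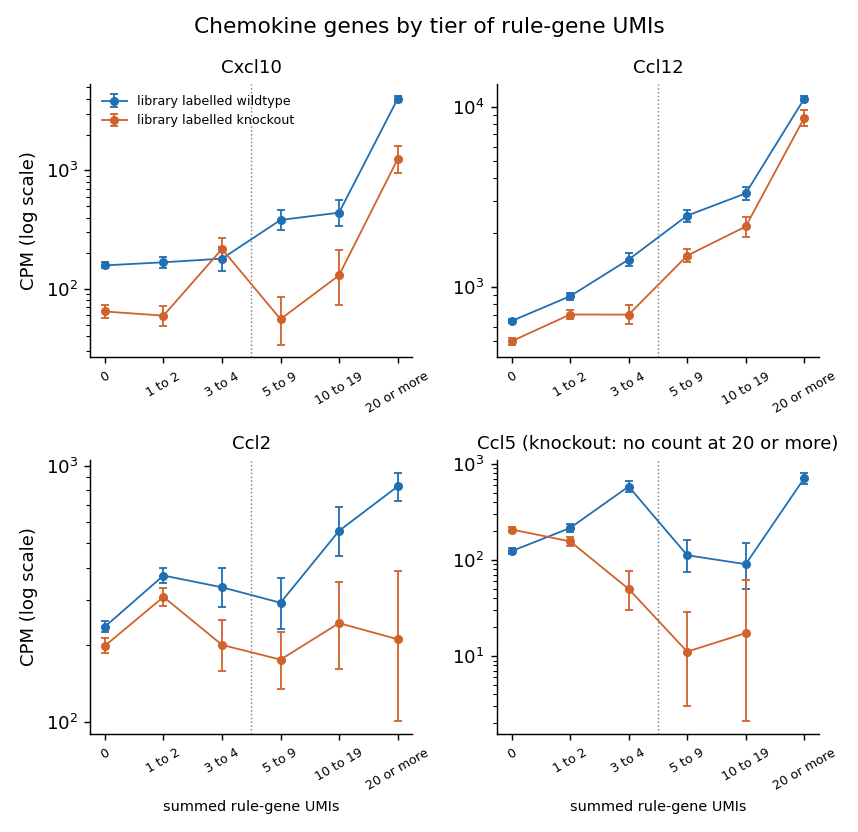
CPM (log scale) of 4 chemokine genes in microglia grouped by summed rule-gene UMIs, for both libraries, with 95% Poisson intervals; the dotted line marks the member threshold of 5. In the top tier Cxcl10 stands at 4003 and 1242 CPM and Ccl12 at 11047 and 8653 CPM, and Ccl5 has no count there in the library labelled knockout.

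Genes higher in members under the knockout label included MHC class II genes and Ms4a7, which few members carried. Ms4a7, a border macrophage marker, was at 123.8 and 406.3 CPM in members, a ratio of 3.28 (2.55 to 4.25), with counts in 5.34% and 15.8% of them. H2-Eb1 had a ratio of 2.40 (1.90 to 3.03), H2-Aa 2.18, Cd74, the invariant chain of MHC class II, 1.83, and Lyz2, the lysozyme gene of myeloid cells, 1.86. These sizes rest on few cells: without the highest cell of each group H2-Eb1 was at 4.33, H2-Aa at 3.08, Cd74 at 2.37 and Lyz2 at 1.80. On the log2 scale, with at least 5 of the 7 microglial genes required, H2-Eb1 was at 0.76, H2-Aa at 0.36, Cd74 at 0.44 and Lyz2 at 0.05, from 1.26, 1.13, 0.87 and 0.89 over all members. Apoe was at 8049 and 15706 CPM, a ratio of 1.95 (1.89 to 2.02), with counts in 34 of 131 and 48 of 95 members. Its ratio was 1.58 with a sum of 0. It varied from tier to tier: 8367 CPM under the wildtype label and 63.2 under the knockout label for sums of 20 or more. Without cells that held 2 or more markers of another immune type, the log2 ratio of Ms4a7 was 1.71, as over all members, and that of Apoe moved from 0.96 to 2.37. With at least 5 of the 7 microglial genes required they were 1.01 and 0.29. The border macrophage list, summed, moved the same way in members (460.9 and 584.5 CPM), and its part in these results was not tested beyond those exclusions.

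Transcripts of the interferons were rare. Of 16 interferon genes in the tables, 4 had a count (Ifnb1, Ifng, Ifnk and Ifnz), 128 counts in all, of which members held 13. Ifnb1, which encodes interferon beta, had 63 counts in 27 cells of the library labelled wildtype, all of them microglia. Of those cells 4 were members, with 12 counts, 13 had a sum of 0, and 1 was the cell with the highest sum of all, 127. In the library labelled knockout Ifnb1 had 16 counts in 4 cells, of which 0 were members and 9 counts were in 1 cell. With 0 of 95 members, a share of up to 3.81% with a count is allowed there. Ifng, the interferon of T and NK cells, had 2 and 40 counts, 0 of them in members, and 25 of the 40 lay in 6 cells outside the microglia. Ifnk had 1 count in each library, 0 of them in members, and Ifnz 3 and 2, of which 1 was in a member. No interferon alpha gene had a count.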

How the data were processed

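Single CD45-sorted retinal cells were measured with a 10x 3′ kit, per the labels' protocols. The deposited tables hold raw UMI counts of 31053 genes per barcode, made with Cell Ranger 3.1 and the mm10 build, per the submitters' processing notes. Barcodes were kept with at least 500 UMIs, 250 genes and at most 15% mitochondrial counts. Counts were summed over members and comparison cells of each library and given as CPM. Ratios used a floor of 3 counts per group. Intervals at 95% are Clopper-Pearson for shares, Poisson for sums and the exact split of counts for ratios, and cover counting error only. Cells are not replicates, so no test was run. Genes were compared at 100 CPM or more and called by a ratio of 2 (lists, 1.5).

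The members and lists were chosen with earlier results of these data known. Named genes are the rule genes, the 20 highest and 10 lowest mean ratios, the 2 highest, 2 lowest and most abundant of each list at 50 CPM, the 8 highest and 8 lowest ratios between libraries at 200 CPM, interferon genes with a count and Igfbpl1. Other genes given, such as Lgals3bp and Cd47, were chosen after their values were seen. A few listed genes are not reported here.

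Thinning drew 1000 or 2000 UMIs per cell without replacement, leaving out shallower cells (at 1000 UMIs, 1 and 0 members, 27 and 22 cells with a sum of 0). Scrublet in scanpy 1.11.5 called 3 and 0 doublets, 0.111% of 2695 and 0% of 1761 cells, and 0 members. At so low a share the caller is taken to have failed, and no doublet was removed. Positions are from GENCODE M21 and promoter windows from RefSeq on GRCm38.p6, in which 48 of the 59 genes matched by symbol. Code was tested on simulated counts with Python 3.11.15, numpy 2.4.6 and scipy 1.17.1.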

Additional observations from a re-analysis of the deposited data

Results flagged for a closer look

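Ccl5 was singled out because its direction differed between the libraries: members over microglia with a sum of 0 gave a ratio of 2.90 in the library labelled wildtype and 0.0552 in the library labelled knockout. The difference was not tested, since there is 1 library per genotype. By tier of the rule genes, from a sum of 0 to 20 or more, Ccl5 stood at 123.9, 215.9, 583.3, 112.3, 90.6 and 710.9 CPM under the wildtype label, and at 208.1, 156.7, 50.04, 11.1, 17.4 and 0 CPM under the knockout label. When cells with at least 2 markers of another immune type were left out, the mean log2 ratio of both libraries moved from -1.32 to -0.29.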

How the results depend on the processing

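No paired analysis was possible because each genotype has 1 library and the replicate number only names it. The sum of 20 or more, sums of 5 to 19 and each gene's highest cell left out were chosen after seeing the data. The member share (5.42% and 6.20%) was 8.78% and 11.0% at a sum of 3 or more, 3.23% and 1.83% at 10 or more, and 2.07% and 0.522% at 20 or more. With cells thinned to 1000 UMIs and a sum of 2 or more it was 4.53% (3.73 to 5.44) and 4.17% (3.22 to 5.31). With cells thinned to 2000 UMIs and a sum of 3 or more it was 5.69% and 6.27%. It was 4.18% and 3.26% without Ifit3 in the sum, 4.10% and 3.65% without Isg15, and 4.47% under the wildtype label without Ifit2. The order of the libraries thus turned with the threshold and with the genes in the sum. It also turned with thinning to 1000 UMIs, where the intervals overlap, but not with thinning to 2000 UMIs.

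Genes higher in members (59) numbered 35 at a sum of 3 or more, 21 at 200 CPM and 33 with sums of 5 to 19, all among the 59. They numbered 78 at a sum of 10 or more, 83 at 50 CPM and 85 at 1.5-fold, each with all 59, and 106 at a sum of 20 or more, with 56 of the 59 (Cybb, Ms4a6c and Stat2 lost). Without the member with the highest sum in each library, 1 call was lost, Cxcl10. Genes lower (0) numbered 1 at 10 or more and 3 at 1.5-fold. Antiviral effectors higher (27) numbered 16 at 200 CPM. Between libraries, genes higher in members (9) numbered 28 at 10 or more, 5 with 5 of 7 markers, 16 without Isg15, 41 at 50 CPM, 5 at 200 CPM, 44 at 1.5-fold and 18 with sums of 5 to 19. Genes lower (33) numbered 15 at 3 or more, 76 at 10 or more, 73 at 50 CPM, 14 at 200 CPM, 107 at 1.5-fold and 14 with sums of 5 to 19. With a sum of 0, genes higher (2) numbered 4 without cells with other immune markers, 0 at 200 CPM and 11 at 1.5-fold, and genes lower (2) numbered 1 with the stricter filter, 5 of 7 markers or 200 CPM, and 10 at 1.5-fold. The log2 ratio of Ifit3b between libraries turned to 0.12 with sums of 5 to 19. Of the other values of single genes, 486 moved by less than their counting interval and 125 by more; the cause was not tested. Depth limits rare transcripts: with 8 members of a sum of 20 or more under the knockout label, 1 cell can set a level.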

Other observations

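Of the 59 genes at least 2-fold higher in members of both libraries, 16 were in no list. They were Sp110, Fcgr4, Znfx1, Cybb, Cd72, Sdc3, Fgl2, Trafd1, Clec2d, Trim12a, Trim30d, Rnf213, Cd47, Dopey2, Ms4a6c and March5, singled out after their values were seen except Rnf213. Cd47, which encodes the surface signal that restrains phagocytes, was at 447.1 against 211.0 CPM (2.12-fold) under the wildtype label and at 456.1 against 205.8 CPM (2.22-fold) under the knockout label. Cybb, which encodes a core subunit of the NADPH oxidase, was 3.15-fold and 2.32-fold higher, and 3 matches to the searched core lie in its promoter window. Fcgr4, an Fc receptor gene, was 2.02-fold and 2.12-fold higher, and Cd72, which encodes an inhibitory lectin, 2.29-fold and 2.41-fold. These 3 surface genes (Cd47, Fcgr4 and Cd72), with Lgals3bp, Ms4a6b and Ms4a6c, were the 6 of 59 whose ratio was not the larger under the wildtype label.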
